A study of Drosophila melanogaster with 9 samples.

Results

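UDP-glycosyltransferases (UGTs) attach a sugar, in insects mostly glucose, taken from a UDP sugar, to small fat-soluble molecules, which makes them soluble in water and easier to excrete. They sit in the membrane of the endoplasmic reticulum, are best known in insects for handling plant toxins, insecticides, pigment precursors and odorants, and many are expressed in gut, Malpighian tubules, fat body and antennae. The number after Ugt gives the family, and members of a family share more protein sequence with each other than with other families. The genes described here were all those whose symbol begins with Ugt and a digit and that had a probe set annotated to that symbol alone. This rule used no measured value and gave 35 genes in 13 families, of 11982 genes with such a probe set on the array. Each of the 35 had 1 probe set.

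RNA of whole adult flies of the wild type stock Canton-S was measured with 3 Affymetrix Drosophila Genome 2.0 arrays for each of 3 treatments of 2.5 hours. Males and females were 5 to 6 days old (25 flies per the labels). They were kept under constant hypoxia (CH) at 1% O2, under intermittent hypoxia (IH), or under normoxia (NC) in the same room. IH had 4 min at 1% O2 alternating with 4 min at 21% O2. Per the methods O2 was ramped between these levels, more slowly on the way down. A full cycle was therefore much longer than the 4 min phases added together. Whether the 3 samples per treatment were exposed separately is not stated. The p-values therefore reflect only the spread among arrays of the same treatment, and that spread may be technical. In the fit the spread was pooled over the 3 treatments and adjusted by that of all probe sets. Each p-value thus also carries the spread of the treatment not compared. In RNA from whole flies of both sexes, fewer cells of a type and less RNA per cell cannot be told apart.

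The deposited values are signals (probe set intensities on a linear scale). The median signal per array lay between 704.5 and 782 in CH, between 594 and 823 in IH and between 675 and 771 in NC. A signal under 100, taken here as dim, was found for 21.6% to 25.8% of the probe sets of an array. Markers of midgut, Malpighian tubule, fat body, olfactory organ, testis, accessory gland and ovary were measured in these flies. Not every listed marker had a probe set annotated to it alone. Of 10 listed midgut markers, lab, Npc1b and Amy-p lacked one, and of 6 listed Malpighian tubule markers, Uro and CapaR did. Hn, Obp83a and Vm26Ab were missing from the fat body, olfactory and ovary lists. Array 1 was the lowest of its group for 15 of the 35 UGT genes in CH (42.9%, against 33.9% of all probe sets), 20 in IH (57.1%, against 37.0%) and 18 in NC (51.4%, against 35.2%). It was more than 2-fold below both other arrays for 0 UGT genes in CH, 4 in IH (11.4%, against 5.54% of all probe sets) and 1 in NC (2.86%, against 4.45%). The 4 genes in IH were Ugt35B1, Ugt35C1, Ugt302E1 and Ugt303B1, and IH arrays 2 and 3 had 4.47 and 3.09 times the signal + 16 of IH array 1 for Ugt35B1. The summed signal of 7 midgut markers was 237619, 446939 and 437465 on IH arrays 1 to 3, 281822, 374066 and 418864 on CH arrays 1 to 3, and 281808, 380155 and 379666 on NC arrays 1 to 3. For 4 Malpighian tubule markers the sum was 11992, 19912 and 15612 on IH arrays 1 to 3, 12576, 15476 and 14863 on CH arrays 1 to 3, and 14334, 17032 and 17376 on NC arrays 1 to 3. Bright markers weigh most in such sums, with a CH mean of 105699 for alphaTry and 1145 for Vha100-4 among the midgut markers. Array 1 was the lowest of each group for both sums, and IH array 1 was the lowest of the 9. The part of gut and tubule content in the UGT values was not tested.

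UGT signals covered a wide range, with 9-array means between 55.9 and 8860.0. In NC the 3 brightest UGT probe sets were those of Ugt35C1, earlier named Ugt86Dd and known for variants linked to nicotine resistance in larvae (6937 ± 577, SD, n = 3), Ugt316A1 (6136 ± 63, SD, n = 3) and Ugt302C1 (4826 ± 727, SD, n = 3). Signals of different probe sets also depend on their probes, so they do not order the transcripts. Ugt316A1 gave 7430.5, 4845 and 6455 in CH, 7244, 4459 and 7127 in IH, and 6209, 6098 and 6102.5 in NC. Its groups overlapped in every comparison. Ugt302C1 gave 4880, 4089 and 3438 in CH, 5679, 4665.5 and 4752 in IH, and 5590.0, 4746 and 4142 in NC, also with overlap. Dim genes were fewer: 5 of the 35 (Ugt35D1, Ugt35E1, Ugt37C1, Ugt49B2 and Ugt307A1) had a mean under 100, and 9 had at least 1 array under 100. No UGT gene was under 100 on all 9 arrays. The values used here carry no detection calls, so it is not known which of the dim signals were above background.

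**Figure D1:**
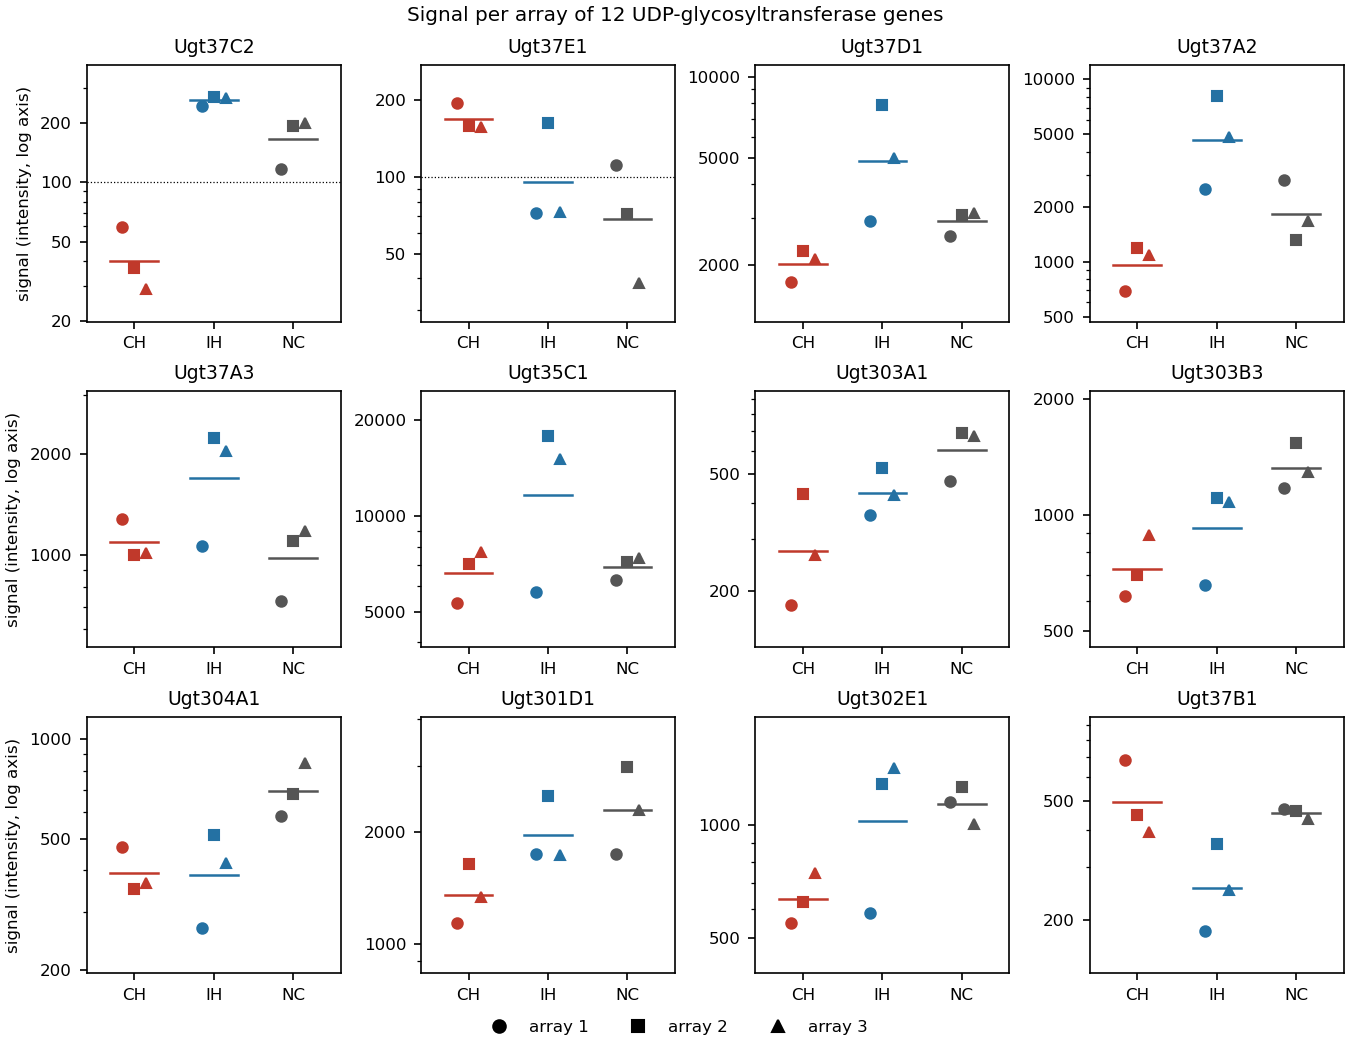
Signal per array of 12 UGT genes on log axes, with CH, IH and NC side by side, symbols for the 3 arrays of each treatment, a bar at the mean on the log2(signal + 16) scale and a dotted line at a signal of 100 where it falls in range. All CH arrays of Ugt37C2 lie under 100 and all its IH and NC arrays above, while the IH arrays of Ugt35C1, Ugt37A2 and Ugt37D1 spread over more than the other groups.

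The first comparison asked how UGT expression in flies under CH differed from that in flies kept in normoxia. No UGT gene was called at the limits of the study's methods, with limma in place of the study's VAMPIRE suite. The limits were an adjusted p under 0.05, a fold above 1.5 or under 0.67 and all 3 CH arrays on one side of the NC mean. The smallest limma adjusted p of a UGT gene was 0.168. In all probe sets 0.0213% were called as higher and 0% as lower. At an unadjusted limma p under 0.05 with the same fold and direction limits, 6 UGT genes had lower signals in CH (17.1%, against 1.33% of all probe sets). They were Ugt37C2, Ugt303A1, Ugt303B3, Ugt304A1, Ugt301D1 and Ugt302E1. Only Ugt37E1 had a higher signal by this rule (2.86%, against 2.54% of all probe sets). Without the fold and direction limits these 7 genes were also those with an unadjusted p under 0.05, against 4.68% of all probe sets.

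Ugt37C2, earlier named Ugt36Ba, showed the largest of these differences. It gave 59.3, 36.9 and 28.8 on the CH arrays and 117, 192 and 200.3 on the NC arrays. Every CH array was below every NC array, and all CH values were dim. The log2 fold change was -1.69 (standard error 0.26, 95% interval -2.28 to -1.09, limma adjusted p = 0.168), a fold of 0.310 on the scale of signal + 16, which understates the change of dim genes. Left out in turn, no array moved it outside -1.91 to -1.52.

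In family 303, 3 of 4 genes had lower signals in CH than in NC. Ugt303A1, earlier named Ugt86Dh, gave 178, 427 and 264 on the CH arrays and 476, 691 and 676 on the NC arrays, with no overlap. Its log2 fold change was -1.11 (SE 0.32, limma adjusted p = 0.723). For Ugt303B3 the CH arrays gave 617, 700.0 and 885 and the NC arrays 1175, 1539 and 1289.5, again without overlap, a log2 fold change of -0.86 (SE 0.25, limma adjusted p = 0.726). Ugt303B1 gave 122, 334 and 256 in CH and 350.2, 568 and 411 in NC, which did not overlap either. Its log2 fold change of -0.93 (SE 0.50) did not reach an unadjusted p under 0.05. That SE pools the spread of the 3 treatments, and the IH arrays of this gene were at 119, 404 and 361. Ugt303B1 passed the unadjusted rule in some alternative runs, among them the one without IH array 1. The fourth gene, Ugt303B2, gave 274, 194.5 and 216 in CH and 210.0, 282 and 173 in NC, which overlapped.

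The 3 other genes of the 6 belong to families 301, 302 and 304. Ugt304A1, earlier named Ugt86Dj, gave 472, 352 and 365 on the CH arrays and 586, 682 and 848 on the NC arrays, a log2 fold change of -0.80 (SE 0.27, limma adjusted p = 0.850). Ugt86Dh and Ugt86Dj are on the study's own list for CH, which was drawn from these same arrays and is not independent evidence of their direction. The study tested significance with VAMPIRE. Limma at the same limits called neither gene here, but it called 0% of all probe sets as lower in CH. The lack of a call is therefore not particular to these genes. Ugt301D1 gave 1138, 1633 and 1337 in CH and 1745, 2974 and 2288 in NC (log2 fold change -0.75, SE 0.26, limma adjusted p = 0.897), the highest CH signal lying just under the lowest NC signal. Ugt302E1, earlier named Ugt86Dc, gave 549.7, 624 and 746.5 in CH and 1154, 1267 and 1010.2 in NC, a log2 fold change of -0.83 (SE 0.33, limma adjusted p = 0.996). In neither gene did the groups overlap.

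Ugt37E1, earlier named Ugt36Bb, went the other way. It gave 194, 158 and 156 on the CH arrays and 111, 71.4 and 38.2 on the NC arrays, with no overlap but with 2 of 3 NC arrays dim. The log2 fold change was 1.13 (SE 0.37, 95% interval 0.27 to 1.99, limma adjusted p = 0.850). Without NC array 3, the dimmest, it was 0.81 and no UGT gene had a higher signal by the unadjusted rule. Without any of the arrays in turn the count of lower genes was 4 to 8.

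Arrays of CH and NC did not overlap for 12 of the 35 genes. In 10 the CH arrays were all lower (28.6%, against 5.39% of all probe sets), namely the 6 above with Ugt303B1, Ugt36D1, Ugt37A2 and Ugt37D1. The 2 higher ones were Ugt37E1 and Ugt305A1 (5.71%, against 7.13%). With the fold limits added, 8 were lower (22.9%, against 1.57%) and 1 was higher (2.86%, against 3.12%). Ugt305A1 had nearly equal CH signals of 1401, 1404 and 1409, against 1127, 1179 and 1068 in NC, a fold of 1.25 that is inside the limits. The log2 fold change was above 0 for 13 of the 35 genes (37.1%, against 51.7% of all probe sets), with a median of -0.10 for the UGT genes and 0.01 for all probe sets.

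The second comparison was of IH with NC, and it gave a different set of names. No UGT gene was called at an adjusted p under 0.05 (smallest adjusted p from limma 0.9999), nor was any other probe set on the array in either direction (0%). At an unadjusted p under 0.05 with the limits, Ugt37A2, Ugt37A3 and Ugt37C2 had higher signals in IH (8.57%, against 1.21% of all probe sets), all of family 37. Lower signals by this rule were seen for Ugt304A1, Ugt35E1 and Ugt37B1 (8.57%, against 1.92%). The same 6 genes had an unadjusted p under 0.05 with no further limit, against 3.59% of all probe sets.

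Ugt37A2 gave 2499, 8120.2 and 4856 on the IH arrays and 2786, 1315 and 1681 on the NC arrays. Array 1 of IH lay below array 1 of NC, so the groups overlapped. The log2 fold change was 1.33 (SE 0.46, 95% interval 0.27 to 2.38), and it was 0.92 without IH array 2 and 1.77 without IH array 1. Its neighbour Ugt37A3 gave 1059.7, 2237 and 2033 in IH and 729, 1098 and 1177 in NC (log2 fold change 0.78, SE 0.32). Here too IH array 1 fell inside the NC range and the other 2 above it.

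Ugt37D1, earlier named Ugt36Bc, gave 2909, 7878 and 4989 in IH and 2556, 3060.4 and 3131 in NC, a log2 fold change of 0.74 (SE 0.33) that missed an unadjusted p of 0.05. Ugt35C1 had the same shape, with 5778, 17911.5 and 15158 in IH and 6286, 7139 and 7384 in NC (log2 fold change 0.75, SE 0.40). Without IH array 1 these log2 fold changes were 1.11 for Ugt37D1 and 1.25 for Ugt35C1. Without IH array 2 they were 0.39 for Ugt37D1 and 0.43 for Ugt35C1. In both genes IH arrays 2 and 3 were above every NC array and IH array 1 was within or below their range. These are the arrays on which the midgut marker sum was 437465 or more, whose part in these values was not tested.

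Ugt37C2 was the only UGT gene with every IH array above every NC array, at 244, 268.5 and 268 in IH and 117, 192 and 200.3 in NC (2.86%, against 2.63% of all probe sets, and 1.39% with the fold limit). Its log2 fold change was 0.61 (SE 0.26), a fold of 1.52 that just passes the limit. With the replicate number as a block, with 50 added to the signal or with robust variances, Ugt37C2 did not pass the unadjusted rule for IH and Ugt37D1 did. With 1 added in place of 16, Ugt37C2 did not pass it either.

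Lower signals in IH without overlap were seen for 4 genes (11.4%, against 4.03% of all probe sets), of which 3 also passed the fold limit (8.57%, against 2.17%). Ugt304A1 gave 269, 514 and 420.1 on the IH arrays against 586, 682 and 848 on the NC arrays (log2 fold change -0.82, SE 0.27), next to -0.80 in CH. Both values rest on the same NC arrays. Ugt37B1 gave 185, 361 and 253 in IH and 472, 463 and 434 in NC (log2 fold change -0.79, SE 0.28). Ugt35E1, earlier named Ugt86Dg, gave 37.3, 28.8 and 88.9 in IH and 108.5, 90.9 and 163 in NC (log2 fold change -1.08, SE 0.37), with all 3 IH arrays dim. The fourth was Ugt303B3, with 657, 1109.5 and 1082 in IH and 1175, 1539 and 1289.5 in NC.

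The IH counts rested on single arrays. Of the 3 higher genes none passed without IH array 2, and Ugt37A2 alone passed without CH array 2, IH array 3 or NC array 1. Without NC array 2 none of the 3 passed and Ugt36F1 did. Without IH array 1, Ugt37C2 did not pass while Ugt35C1 and Ugt37D1 did. Of the 3 lower genes none passed without IH array 1, where Ugt35D1 did, and Ugt37B1 alone passed without NC array 3. Of all 35 genes, 16 were above 0 on the log2 scale in IH (45.7%, against 45.3% of all probe sets), with a median of -0.03, against -0.02 for all probe sets.

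**Figure D2:**
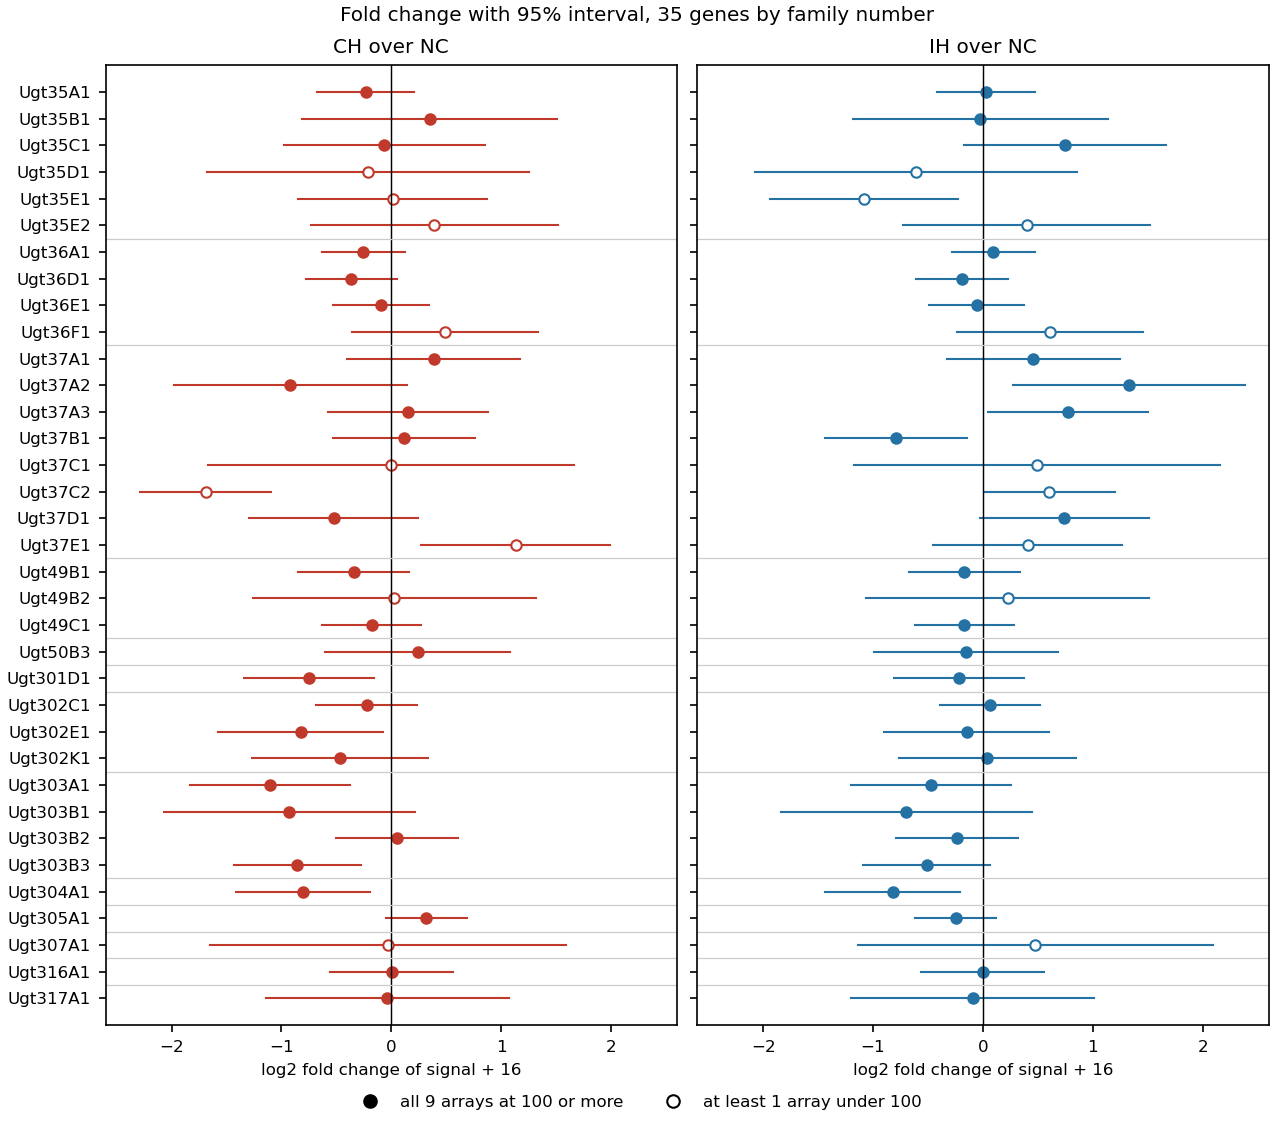
Log2 fold change of signal + 16 with its 95% interval for the 35 UGT genes grouped by family number, CH over NC on the left and IH over NC on the right, open symbols for genes with at least 1 array under 100. Family 303 lies mostly left of 0 in both panels, and family 37 has 7 of 8 points right of 0 for IH but runs between -1.69 and 1.13 for CH.

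CH and IH were then compared directly, which does not use the level of the NC arrays but shares their spread. Ugt37C2 fell under CH relative to IH: its signals were 59.3, 36.9 and 28.8 on the CH arrays and 244, 268.5 and 268 on the IH arrays. The log2 difference was -2.29 (SE 0.26, 95% interval -2.89 to -1.70, limma adjusted p = 0.0481), a fold of 0.204. It was the only UGT gene called (2.86%, against 0.0107% of all probe sets called as lower in CH than in IH), and no UGT gene was called as higher (0.0266% of all probe sets were). The call was close to its threshold. It was lost when any array other than NC array 1 was left out (adjusted p 0.0862 to 0.286) with only the CH and IH arrays in the fit (0.136), with 1 added to the signal in place of 16 (0.0760) and with robust variances (0.125), while every array left out in turn kept the log2 difference between -2.50 and -2.13.

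At an unadjusted p under 0.05 with the limits, Ugt37A2, Ugt37C2 and Ugt37D1 had lower signals in CH than in IH (8.57%, against 1.02% of all probe sets). Ugt37A2 gave 690.1, 1183 and 1091 in CH against 2499, 8120.2 and 4856 in IH, a log2 difference of -2.24 (SE 0.46, limma adjusted p = 0.311). Ugt37D1 gave 1728, 2257 and 2099 in CH against 2909, 7878 and 4989 in IH, a log2 difference of -1.26 (SE 0.33, limma adjusted p = 0.620). In both, every CH array was below every IH array, IH array 1 included, and every CH array was also below every NC array. Ugt37B1 and Ugt35E1 had higher signals in CH (5.71%, against 3.06%). Ugt37B1 gave 687, 448 and 394 in CH and 185, 361 and 253 in IH without overlap (log2 difference 0.91, SE 0.28, limma adjusted p = 0.744). Ugt35E1 gave 170.1, 110.4 and 87.9 in CH and 37.3, 28.8 and 88.9 in IH, where the lowest CH array and the highest IH array overlapped (log2 difference 1.09, SE 0.37, limma adjusted p = 0.826). The count of 3 lower genes was 5 without CH array 2 and 7 without IH array 1, and that of 2 higher genes was 1 without CH array 1 or IH array 1.

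Arrays of CH and IH did not overlap for 7 UGT genes. CH was lower in 5, Ugt37C2, Ugt37A2, Ugt37D1, Ugt301D1 and Ugt36A1 (14.3%, against 2.79% of all probe sets), and 3 of them passed the fold limit (8.57%, against 1.04%). CH was higher in Ugt37B1 and Ugt305A1 (5.71%, against 5.07%), of which only Ugt37B1 passed it (2.86%, against 3.19%). Ugt305A1 gave 1401, 1404 and 1409 in CH and 806, 1086 and 963 in IH, a log2 difference of 0.56 (SE 0.16, limma adjusted p = 0.672). With it 6 UGT genes had an unadjusted p under 0.05, against 4.77% of all probe sets. The log2 difference was above 0 for 11 of 35 genes (31.4%, against 57.0% of all probe sets), with a median of -0.17, against 0.05 for all probe sets. How far members and all probe sets lie from 0 depended on the scaling of the arrays. With each array centred on its median 8 UGT genes and 39.8% of all probe sets were above 0, and with quantile normalization 9 genes and 49.1%.

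By family, the groups differed in how uniform they were. In family 37, with 8 genes, 4 had a log2 fold change above 0 in CH (median 0.06) and 7 in IH (median 0.55), where Ugt37B1 was the exception. Family 303, with 4 genes, had medians of -0.89 in CH, with 1 gene above 0, and -0.49 in IH, with none. All 3 genes of family 302 were below 0 in CH (median -0.47), and 2 of them were above 0 in IH (median 0.04). Family 35 was split evenly in both treatments, with 3 of 6 genes above 0 each time. Family 36 had genes on both sides of 0, from -0.36 (Ugt36D1) to 0.49 (Ugt36F1) in CH (median -0.18) and from -0.19 (Ugt36D1) to 0.61 (Ugt36F1) in IH (median 0.02), and its 4 genes were all below 0 for CH minus IH (median -0.15). Its member Ugt36A1, also known as Dorothy, gave 707, 719 and 768.5 in CH, 982, 896 and 935 in IH, and 923, 993 and 734 in NC. Ugt36D1 gave 3161, 3398.5 and 3032 in CH, all below the NC signals of 3960, 4300.2 and 4095, a fold of 0.777 that is inside the limits. Family 49 had medians of -0.18 in CH and -0.17 in IH. These medians are descriptions of few genes, and no test was made of a family.

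**Figure D3:**
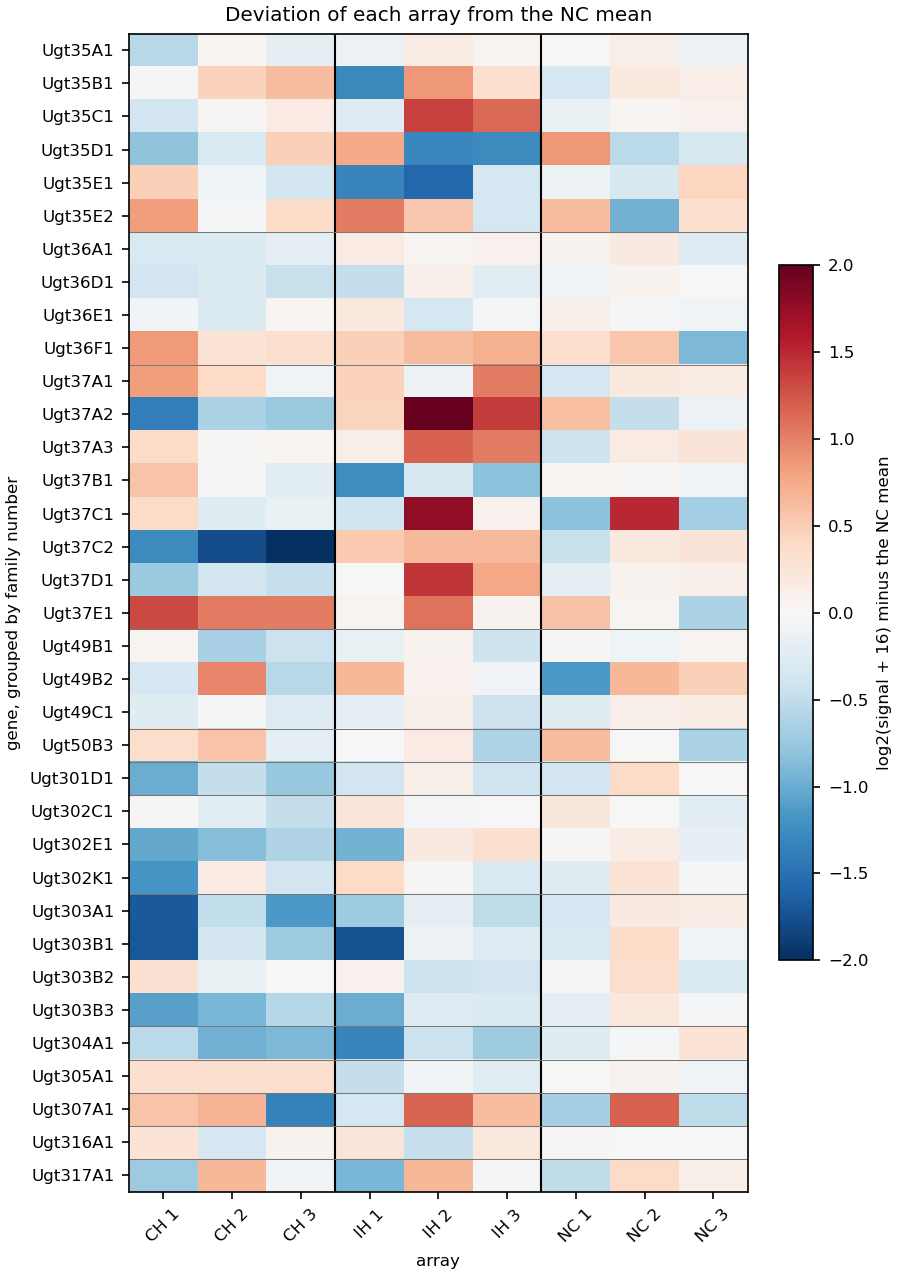
Heat map of log2(signal + 16) minus the NC mean for the 35 UGT genes (rows, grouped by family number) on the 9 arrays (columns, CH, IH and NC), with red above and blue below the NC mean and colours limited at 2 and -2. The CH columns are dark blue for Ugt37C2 and blue for Ugt303A1, Ugt303B3 and Ugt304A1, and IH array 1 differs from IH arrays 2 and 3 for Ugt35B1, Ugt35C1, Ugt302E1 and Ugt303B1.

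UGT genes of the fly often lie next to each other, and by the order of genes in the RefSeq annotation 22 of the 35 fell into 7 runs of neighbours. Neighbours did not always share a direction. Ugt37C2, Ugt37E1 and Ugt37D1 form 1 run, and their log2 fold changes ran from -1.69 (Ugt37C2) to 1.13 (Ugt37E1) in CH, while all 3 were above 0 in IH (0.41 to 0.74). Ugt37A2 and Ugt37A3, a pair, were at -0.92 and 0.15 in CH and at 1.33 and 0.78 in IH. The 6 genes Ugt35E1, Ugt35E2, Ugt35B1, Ugt35A1, Ugt304A1 and Ugt303A1 ran from -1.11 to 0.39 in CH and from -1.08 to 0.40 in IH. Ugt302K1, Ugt302E1 and Ugt302C1 were all below 0 in CH, from -0.83 to -0.23. The other 3 runs were Ugt36F1, Ugt36D1 and Ugt36E1 (-0.36 to 0.49 in CH), Ugt49B1 and Ugt49C1 (-0.34 and -0.18), and Ugt303B3, Ugt303B1 and Ugt303B2 (-0.93 to 0.05). Transcripts of similar neighbours could bind the same probes, and the probe sets of Ugt36E1, Ugt37D1 and Ugt50B3 carry the array's suffix for probes shared by several transcripts, so these values are less certain.

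The remaining genes showed no difference that passed the unadjusted rule in any comparison. Ugt35B1, known for expression in antennae, gave 1853, 2587 and 2885 in CH, 761, 3454 and 2385 in IH, and 1494, 2157 and 2064 in NC, and its interval for IH over NC ran from -1.19 to 1.13 on the log2 scale. Ugt35A1 gave 1551, 2348 and 2010.3 in CH, 2118.5, 2531 and 2371 in IH, and 2287, 2494 and 2099 in NC. Both kept overlapping groups. Ugt37C1 was dim, with 52.2, 28.2 and 31.7 in CH, 24.0, 164 and 39.7 in IH, and 13.6, 133 and 16.8 in NC, and array 2 was the highest of the IH and of the NC arrays. Its interval for CH over NC, from -1.67 to 1.66 on the log2 scale, shows how little these arrays resolve at such signals. The same held for Ugt307A1 (15.7 to 113 in CH, 47.4 to 164 in IH, 34.9 to 167 in NC), Ugt35D1 (42.7 to 127 in CH, 25.4 to 157 in IH, 54.9 to 170.0 in NC) and Ugt49B2 (45.1 to 161 in CH, 69.4 to 127 in IH, 24.8 to 127 in NC). The other genes were brighter, and their groups overlapped in all 3 comparisons. Ugt35E2 gave 118 to 230.2 in CH, 91.4 to 263 in IH and 55.8 to 195 in NC. Ugt36F1 gave 228 to 349 in CH, 266 to 314 in IH and 92.4 to 280 in NC, and its log2 fold change in IH of 0.61 (SE 0.37) came with 1 dim NC array. Ugt37A1 gave 269 to 519 in CH, 263 to 595 in IH and 220.2 to 328 in NC, so its highest CH and IH arrays were above all NC arrays and its lowest were inside their range. Ugt302K1 was between 145 and 391 in CH, 279 and 464 in IH and 291 and 423 in NC. Ugt317A1, earlier named Ugt58Fa, was between 352 and 948 in CH, 306 and 949.9 in IH and 413 and 775 in NC, with array 2 the highest and array 1 the lowest in each group. Ugt50B3 was between 537 and 929 in CH, 397 and 697 in IH and 395 and 957 in NC. In each of these 6 genes the ranges of the treatments crossed. Narrower ranges were seen for Ugt36E1 (2446 to 3038 in CH, 2304.5 to 3411 in IH, 2802 to 3154 in NC), Ugt49B1 (1102.5 to 1807 in CH, 1301 to 1825 in IH, 1651 to 1807 in NC) and Ugt49C1 (608 to 712 in CH, 544 to 791 in IH, 616 to 808.5 in NC).

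The median SD between arrays on the log2 scale was 0.32 in CH, 0.42 in IH and 0.29 in NC for the UGT genes, against 0.29, 0.40 and 0.25 for all probe sets.

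Genes that supply UGTs with donor sugar, another class of conjugating enzymes and regulators of detoxification genes were looked at beside them. Of 6 measured genes for making UDP sugars, among them Pgm1, UGP and sgl, 0 passed the unadjusted rule in any comparison. Of all probe sets, 1.02% to 3.06% passed it, depending on comparison and direction, so 0 of 6 is near that share. All 6 had a log2 fold change below 0 in CH (median -0.13) and in IH (median -0.21), and 5 were above 0 for CH minus IH (median 0.12). Of all probe sets, 51.7% were above 0 in CH, 45.3% in IH and 57.0% for CH minus IH. For mmy every IH array was below every NC array, as for 4.03% of all probe sets. UGP, which makes UDP-glucose itself, gave 386, 405 and 442 in CH, 188, 483 and 371 in IH, and 372, 449.8 and 677.5 in NC, with overlap. Sulfotransferases attach sulfate in place of a sugar. Of 4 measured, 1 had a higher signal in CH than in NC by the unadjusted rule (against 2.54% of all probe sets). By the same rule 1 had a lower signal in IH than in NC (against 1.92%) and 2 a higher signal in CH than in IH (against 3.06%). St1 gave 432, 678 and 487 in IH and 885, 1089 and 1147 in NC without overlap (log2 fold change -0.96, SE 0.21, limma adjusted p = 0.828), and 1173, 1383 and 1151 in CH (CH minus IH 1.21, SE 0.21, limma adjusted p = 0.244). St2 was dim, with 114, 49.4 and 22.7 in CH and 17.0, 14.0 and 9.8 in NC (log2 fold change 1.23, SE 0.40, limma adjusted p = 0.831). In IH it gave 11.7, 22.2 and 13.5 (CH minus IH 1.13, SE 0.40, limma adjusted p = 0.872). The 6 regulators cnc, Keap1, maf-S, Hr96, tgo and ss had medians of -0.06 in CH, -0.05 in IH and -0.06 for CH minus IH. Of these, 0 passed the unadjusted rule, again near the share of all probe sets. Every IH array of maf-S was below every NC array, as for mmy.

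Tissue markers were read on the same arrays. The median log2 fold change over NC of the 7 midgut markers was 0.03 in CH (5 of 7 above 0) and 0.09 in IH (6 of 7). In CH, Vha100-4 (-0.50) and Mal-A1 (-0.16) were the midgut markers below 0. The 4 Malpighian tubule markers had medians of -0.16 in CH (0 of 4 above 0) and -0.15 in IH (1 of 4). The 7 fat body markers had medians of -0.33 in CH (2 of 7 above 0) and -0.15 in IH (2 of 7). In CH, hgo (0.52) and the dim Fbp1 (0.46) were the fat body markers above 0, so this list did not move as 1. The 6 olfactory markers had medians of -0.29 in CH (1 of 6 above 0) and -0.26 in IH (0 of 6). Markers of testis had medians of 0.27 in CH (10 of 10 above 0) and -0.03 in IH (5 of 10), those of the male accessory gland 0.27 in CH (10 of 11) and -0.06 in IH (5 of 11), and those of ovary and eggshell 0.19 in CH (11 of 14) and 0.20 in IH (12 of 14). None of these markers was called at an adjusted p under 0.05. Summed fat body signals lay between 72865 and 84734 in CH, between 83348 and 84643 in IH and between 83829 and 99000.4 in NC. The part of tissue content in the UGT differences was not tested.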

How the data were processed

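Per the methods, Bioconductor's affy package was used by the authors to normalize the arrays, with options not stated there. What they deposited are linear-scale intensities, 1 value per probe set and array, whose mean is 2500 on each array once 2% of probe sets at each end are left out. Of 18769 probe sets kept after 183 controls were left out, 13647 carried 1 gene symbol, 402 carried several and 4720 are unnamed here. All 35 UGT symbols matched RefSeq (Release 6), used for names and gene order only. From log2(signal + 16), limma 3.58.1 in R 4.3.3 (lmFit, eBayes, 9 arrays, 1 coefficient per group) gave differences, 95% intervals and p-values, adjusted by Benjamini-Hochberg over all probe sets. Fold changes are on that scale. Thresholds follow the methods, whose VAMPIRE suite was not run here. The fit was run on simulated data with independent noise of equal spread in all groups, to check that planted differences were recovered. That check does not cover p-values for arrays with unequal or shared spread. Deviations from the group means correlated between arrays of equal replicate number at 0.0918 to 0.322, over 0.1 in all 3 pairs of IH with NC and in 2 of 3 pairs each of CH with NC and CH with IH. Arrays have no read depth, and their number limits the precision.

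The members, lists and tests were chosen with earlier results of these data known. Named genes are the 6, 6 and 4 UGT genes of smallest unadjusted p in the 3 comparisons, the 3 of highest NC signal and those on the study's lists, with others by family. The rest named with values, among them Ugt303B1, Ugt36A1, Ugt36D1, Ugt35A1, Ugt35B1 and the dim genes, were added after their values were seen. Alternatives were other scalings, added constants, a filter on dim probe sets, other variance models, fits of 2 groups, a replicate block and arrays left out in turn.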

Additional observations from a re-analysis of the deposited data

Results flagged for a closer look

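In 4 UGT genes every CH array lay on one side of the NC mean and every IH array on the other. The share of all probe sets that did so was not counted, so this count cannot be read as particular to UGT genes. None of the 4 passed the adjusted threshold against NC in either treatment. The log2 difference of CH minus IH was -2.29 for Ugt37C2 (limma adjusted p = 0.0481), -2.24 for Ugt37A2 (0.311), 0.56 for Ugt305A1 (0.672) and -0.35 for Ugt36A1 (0.999). By limma the difference between the treatments passed the threshold for Ugt37C2 and missed it for the other 3.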

How the results depend on the processing

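No UGT gene changed direction where it had been called, and the counts of 0 at an adjusted p for CH and for IH against NC held in every alternative run. The single call for CH against IH, Ugt37C2, became 0 with only the 2 groups compared (adjusted p 0.136), with 1 added in place of 16 (0.0760), with robust variances that depend on the mean signal (0.125), with only replicates 2 and 3 of each group (0.129, chosen after seeing the data) and with the dimmest 40% of probe sets left out, which left 24 UGT genes and removed Ugt37C2. The call was kept with quantile normalization, with median centring and with 50 added (adjusted p 0.0156 to 0.0440). At an unadjusted p with the limits, the count higher in CH than in NC was 0 with the dim probe sets left out. The count higher in IH than in NC was 5 with median centring and 1 where arrays had to be free of overlap with no p. The count higher in CH than in IH was 1 with the dim probe sets left out, median centring, replicates 2 and 3 only, the robust variances or the overlap rule. The count lower in CH than in IH was 8 with median centring and 6 with quantile normalization or replicates 2 and 3 only. Median centring gave 1 higher and 8 lower in CH than in NC. It also moved all probe sets, from 51.7% to 45.1% above 0 for CH over NC. For IH over NC that share went from 45.3% to 60.1%, and for CH minus IH from 57.0% to 39.8%. The share of all probe sets passing the unadjusted rule was not counted for any alternative run, so how far these counts follow the whole array is not known. Leaving out each array in turn gave 0 to 1 higher and 4 to 8 lower in CH than in NC, 0 to 4 higher and 1 to 3 lower in IH than in NC, and 1 to 3 higher and 3 to 7 lower in CH than in IH, with 0 to 1 at an adjusted p. Each UGT gene has 1 probe set, so a second probe set or a mean over probe sets could not be tried. The causes of these shifts were not tested.

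The labels do not say what a replicate number shares. Each array correlated best with the array of its own number in both other groups (18 of 18 cases), which is a hint from the data and not from the design. These cases are not independent, since each pair of groups was read from both sides with the same correlations. With the replicate number as a block, the counts at an unadjusted p were 1 higher and 7 lower in CH, 3 higher and 4 lower in IH, and 2 higher and 5 lower for CH against IH, and Ugt37C2 (adjusted p 0.225) left 0 calls.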
